A study of Mus musculus with 391 samples.

Results

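Levels and co-expression of 10 genes of lipid handling were read in single cells of the adult mouse brain: Apoe, Trem2, Cd36, Lpl, Abca1, Abcg1, Plin2, Ch25h, Spp1 and Gpnmb. The genes were picked by name, as 10 of the 56941 rows of the deposited count table, and all 10 had reads. Vascular fragments were freed from brain tissue, digested to single cells, sorted into wells and read out by Smart-seq2, which covers whole transcripts and carries no molecular identifiers. The labels give 280 cells as microglia, the macrophages resident in brain tissue, and 111 as endothelial cells, which line blood vessels and carry the code CP-EC in the deposited cell table. All are adult brain cells, no genotype or treatment is given, and no animal is named. Each class therefore counts as 1 sample, no test between classes was possible, and intervals cover counting error only.

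Brain macrophages take up and break down the lipids of dying cells and of myelin. Trem2 is a surface receptor that binds lipids and lipoproteins, among them ApoE particles, and signals through the adaptor Tyrobp. Fatty acids enter through Cd36, surplus lipid is stored in droplets coated by Plin2, and cholesterol leaves through the transporters Abca1 and Abcg1, which nuclear receptors of the LXR type induce when oxysterols build up. Apoe, Lpl, Spp1 and Gpnmb are also known as genes that rise in the Trem2-dependent state of microglia around plaques.

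Microglia-class cells held 47508014 gene reads, with a median of 146506 per cell (39876 to 504875), and endothelial cells 21361227, with a median of 174345 (83954 to 602175). Of 20 core microglia markers, 19 were 4-fold or more higher in the microglia class, and 20 of 20 endothelial core markers were that much higher in endothelial cells. Markers of border macrophages were that much higher in the microglia class for 14 of 14, and markers of tissue microglia for 8 of 10, with 1 higher in endothelial cells. Under the microglia label, 186 of 280 cells had 10 or more reads of Mrc1, a receptor of border macrophages, with fewer than 10 of Sall1, the transcription factor of tissue microglia. These are called Mrc1-high below. The reverse, 10 or more of Sall1 with fewer than 10 of Mrc1, held in 36 cells, called Sall1-high, 2 cells had both genes and 56 neither. At least 3 core markers of the opposite class at 10 or more reads were found in 2 microglia-class cells and 2 endothelial cells.

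Most of the 10 genes stood far higher in the microglia class, but they split into 3 kinds. Apoe and Trem2 were read in nearly all of its cells, Abca1, Cd36, Abcg1 and Plin2 in 56.1% to 66.1% of them, and Spp1, Lpl, Ch25h and Gpnmb in 5.71% to 31.8%. Levels are reads per 1000000 gene reads (CPM), the summed reads of a gene scaled to the summed gene reads of the class, and a gene was called higher at 4-fold or more on log2(CPM + 1). By that measure 8 of 10 were higher in microglia-class cells, beside 19.9% of 14989 measured genes, and 0 of 10 in endothelial cells, beside 11.7%. The genes in between were Abcg1 and Plin2. Gpnmb was among the 8 through 1 cell, and without it had a log2 ratio of 1.69. The median log2 ratio of microglia over endothelial was 5.54 for the 10 genes and 0.36 for the measured genes.

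**Figure D1:**
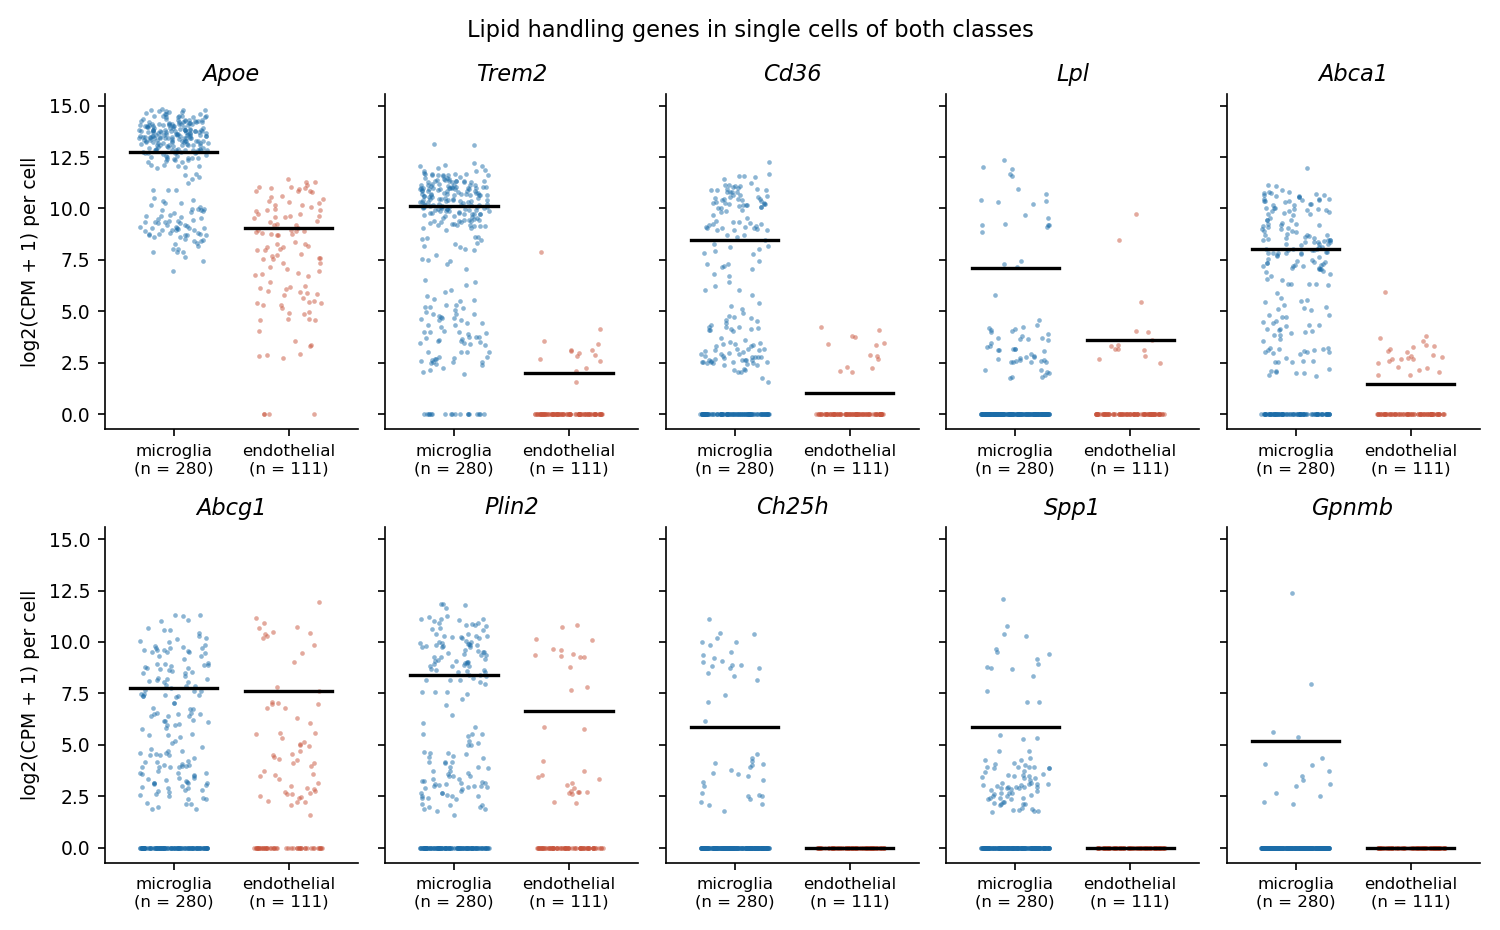
Level of each gene in each cell, as log2(CPM + 1), with microglia-class cells on the left of each panel and endothelial cells on the right; points are cells and black bars are the CPM of the summed reads of the class. Apoe is present in every microglia-class cell and in 96.4% of endothelial cells, whereas Ch25h, Spp1 and Gpnmb lie at 0 in all endothelial cells.

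Apoe, the main apolipoprotein made in the brain, was the most abundant of the 10. It reached 6939 CPM in microglia-class cells (6916 to 6963), against 524 in endothelial cells (514 to 534), a 13.2-fold ratio (13.0 to 13.5). A single microglia-class cell had between 125 and 29575 CPM, with a median of 9650, and a single endothelial cell between 0 and 2813, with a median of 263. The classes therefore overlapped, although 218 microglia-class cells and 23 endothelial cells lay above 1000 CPM. Per kilobase of exon in GENCODE M21, Apoe stood at 3246 CPM in microglia-class and 245 in endothelial cells, and Trem2, the second of the 10 on that scale in the microglia class, at 221 and 0.606.

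The Apoe reads of a microglia-class cell did not follow its total reads. The plot of reads against totals shows a band of cells with about the same number of Apoe reads at every depth and a looser cloud below it. By count, 192 of 280 microglia-class cells had 1000 or more Apoe reads, 16 had 500 to 999 and 72 fewer than 500. Among Mrc1-high cells, the 47 with the fewest total reads (median 71875) had a median of 1319 Apoe reads. The 46 with the most total reads (median 294184) had a median of 1836, so that the median Apoe level was 18930 CPM in the shallowest cells and 5969 CPM in the deepest.

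Over all 280 cells the Spearman rho of Apoe CPM with total reads was -0.73, and it was -0.76 on plate A and -0.69 on plate B. The slope of log Apoe reads on log total reads was -0.27, the lowest of 39 genes at 1000 CPM or more with 10 or more reads in at least 90% of these cells. A slope of 1 means reads in proportion to the total, and the 39 genes had a median of 0.82, while Trem2 had 0.87. The Apoe slope differed between groups, at -0.23 within Mrc1-high cells and 0.44 within Sall1-high cells. Apoe CPM had a rho with total reads of -0.93 in Mrc1-high cells and -0.48 in Sall1-high cells. The ribosomal RNA gene Rn18s-rs5 varied least of the 39, with a median of 1625 reads, a range of 890 to 1843 and a coefficient of variation of 8.48%, against 58.0% for the total reads. CPM of Apoe thus depends on depth within the microglia class, and reads per cell are given beside it. The median was 1449 Apoe reads per microglia-class cell and 45 per endothelial cell. Whether duplicate reads were removed before counting is not stated, and the cause of the flat counts was not tested.

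**Figure D2:**
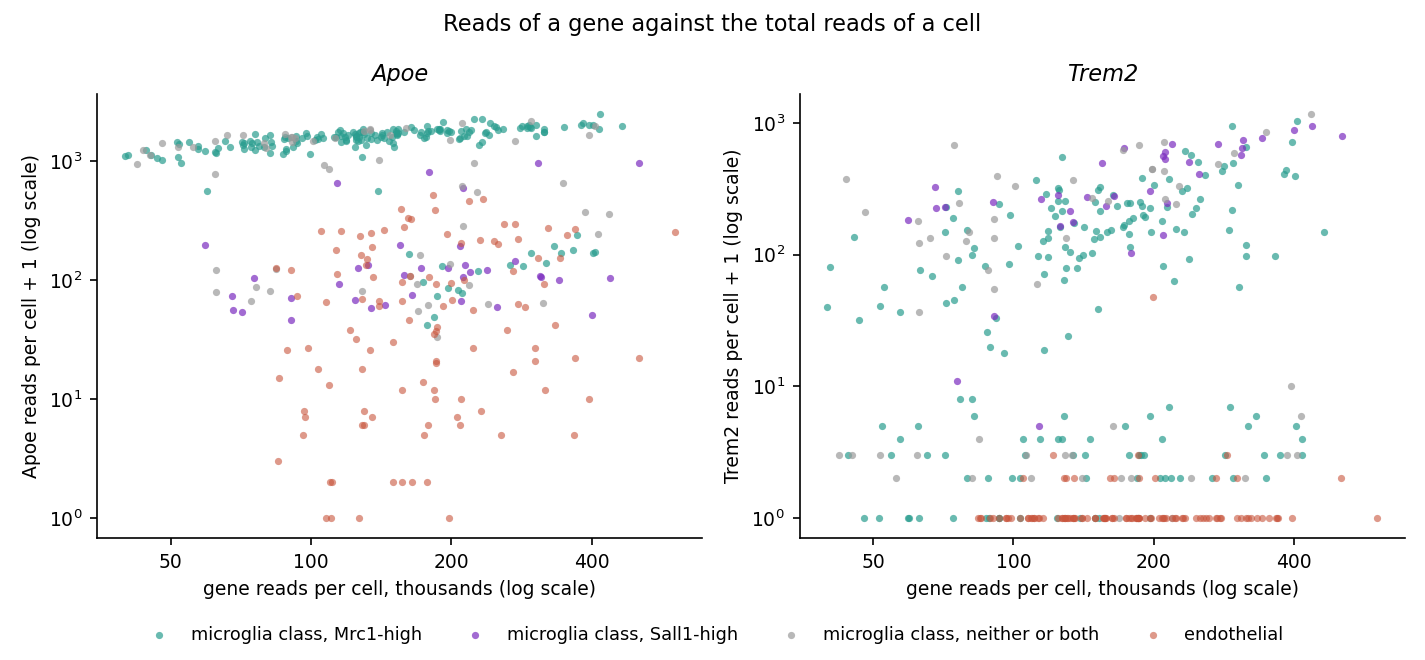
Reads of Apoe (left panel) and Trem2 (right panel) per cell, plus 1, against all gene reads of the cell, both axes on a log scale; each point is a cell, coloured by its Mrc1 and Sall1 reads within the microglia class or as endothelial. Most Mrc1-high cells form a flat Apoe band, with a median of 1582 reads, Sall1-high cells lie below it with a median of 106.5, and Trem2 is under 10 reads in 89 microglia-class cells.

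Endothelial Apoe was set beside the complement genes of microglia. C1qb, a complement gene of microglia, had 4253 CPM in microglia-class cells, against 5.48 in endothelial cells, so that there were 1.63 Apoe reads per C1qb read in the microglia class, against 95.7 in endothelial cells. In the 37 endothelial cells without a read of C1qa, C1qb or C1qc, Apoe was read in 34 and stood at 424 CPM. Astrocytes are the largest source of ApoE in brain tissue, and the 10 astrocyte markers summed to 379 CPM in endothelial cells, of which Gja1 alone gave 352. Aldoc stood at 13.5 CPM, Slc1a3 at 1.45, Aqp4 at 1.12 and Gfap at 0.234. Slc1a2 stood at 4.16 CPM in endothelial cells of plate A and 27.3 in those of plate B. Apoe stood at 556 CPM in the 63 endothelial cells without a read of Aqp4, Slc1a2, Slc1a3 or Gfap, a filter that did not use Gja1 or Aldoc. It stood at 329 CPM in the 11 cells without a read of any of the 10, with a read in 11 of 11. In the 37 cells without C1q reads, Abcg1 stood at 228 CPM, Plin2 at 47.5 and Trem2 at 6.19, the last from 1 cell. The 4 plates gave similar endothelial levels, at 526 CPM on plate A, 396 on B, 543 on C and 534 on D.

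Trem2 was nearly confined to the microglia class, at 1095 CPM (1086 to 1105) against 3.00 (2.31 to 3.83) in endothelial cells, a ratio of 366 (286 to 475). Of its 64 endothelial reads, 47 came from 1 cell of plate C, which had no C1qb read. The others were 1 or 2 reads in 14 cells, found in 3 of 7 cells on plate A and 5 of 10 on plate B, which also hold microglia-class cells, in 6 further cells on plate C and in none of 44 on plate D. Within the microglia class, 262 of 280 cells (93.6%) had a read, against 13.5% of endothelial cells, but only 191 (68.2%) had 10 or more. The median cell had 882 CPM, the lower quartile was 27.5 and the highest cell 9075.

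Tyrobp, the adaptor of Trem2, was at 1384 CPM in microglia-class cells, against 7.16 in endothelial cells. In the list of Trem2 signalling, all 15 genes besides the receptor were measured. Of these, 9 were higher in microglia-class cells, beside 19.9% of all measured genes, and 0 in endothelial cells, beside 11.7%. The median log2 ratio was 3.59, against 0.36 for all measured genes. Vav1, an exchange factor downstream of the receptor, had 355 CPM against 0.0936, and Inpp5d, a lipid phosphatase that restrains the signal, 542 against 81.0.

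Cd36, a scavenger receptor for fatty acids and oxidised lipoproteins, had 347 CPM in microglia-class cells (342 to 353), against 1.03 in endothelial cells (0.645 to 1.56). It had 10 or more reads in 91 of 280 microglia-class cells and in 0 of 111 endothelial cells, where the highest cell had 4 reads. Microglia-class cells were divided, since the median cell had 5.76 CPM and the upper quartile 490. Within the plates, Cd36 was at 405 CPM against 0 on plate A and 316 against 0.471 on plate B.

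Genes of fatty acid uptake and binding went the same way for 6 of 15 measured members, with 1 higher in endothelial cells. The shares of all measured genes were 19.9% and 11.7%. The median log2 ratio of the list was 0.96, against 0.36 for all measured genes. Msr1, a scavenger receptor, had 122 CPM in microglia-class cells, against 0.0468 in endothelial cells, and Cd68, a lysosomal receptor of macrophages, 1556 and 2.39. Cpt1a, which admits fatty acids to mitochondria, was at 99.8 and 316, below the 4-fold mark.

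Lpl, the lipase that frees fatty acids from lipoprotein triglyceride, had 138 CPM in microglia-class cells, against 11.2 in endothelial cells, a 12.3-fold ratio (10.8 to 14.0) that rested on few cells. The log2 ratio was 3.51, but 6.43 within plate A, 5.62 within plate B and 4.47 without the cell with most reads in each class. Of 6555 microglia-class reads, 53.3% lay in 5 cells, and 22 cells had 10 or more. Of 240 endothelial reads, 96.2% lay in 5 cells, with 151 reads in 1 cell of plate C that had 5.65 CPM of Apoe. Gpihbp1, which holds the enzyme on the vessel wall, showed the reverse, at 0.168 CPM in microglia-class cells, against 835 in endothelial cells. The phospholipid transfer protein Pltp and the HDL receptor Scarb1 had 582 and 75.2 CPM in microglia-class cells against 2538 and 1669 in endothelial cells. Of 15 measured genes for lipoproteins and their receptors, 6 were higher in microglia-class cells, beside 19.9% of all measured genes, and 4 in endothelial cells, beside 11.7%. The median log2 ratio was 1.86, against 0.36 for all measured genes.

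The cholesterol exporters behaved unlike each other. Abca1, which loads cholesterol onto lipid-poor apolipoproteins, had 263 CPM in microglia-class cells (258 to 267), against 1.73 in endothelial cells (1.22 to 2.39), a ratio of 152 (110 to 215). It had 10 or more reads in 129 of 280 microglia-class cells and in 0 of 111 endothelial cells. Abcg1, which passes cholesterol to formed particles, had 219 CPM in microglia-class cells (214 to 223), against 197 in endothelial cells (191 to 203). Its share of cells with a read was 56.8% in the microglia class, against 55.9% in endothelial cells.

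Abcg1 was uneven over plates. Microglia-class cells had 171 CPM on plate A and 244 on B, and endothelial cells had 206 on A, 0.943 on B, 154 on C and 289 on D. On plate A the log2 ratio was -0.26 and on plate B 6.98, with only 7 and 10 endothelial cells. In endothelial cells 48.7% of its 4200 reads lay in 5 cells and 25 cells had 10 or more reads, against 87 cells in the microglia class.

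Promoters of 8 of the 10 genes were matched in RefSeq (GRCm38.p6), with 11 start sites in all. Each window runs from 250 bases before a start to 50 after it. A set of 4 motifs was searched on both strands, chosen after the sequences had been seen: the DR4 element bound by LXR (2 copies of GGTNA with 5 bases between), the related DR1 element of PPAR receptors (2 copies of GGTNA with 2 bases between), the E-box CACGTG of helix-loop-helix factors, and the PU.1 motif GAGGAAGT. They were present in 0.718%, 1.1%, 7.15% and 3.2% of 32851 RefSeq promoters of the same length, in that order. The 3 windows below are shown because they alone among the 11 held a match, with matched bases in capitals. That of Abca1 lies on the minus strand at chr4:53159846-53160145, that of Plin2 on the minus strand at chr4:86670010-86670309, and that of Spp1 on the plus strand at chr5:104434861-104435160.
Abca1: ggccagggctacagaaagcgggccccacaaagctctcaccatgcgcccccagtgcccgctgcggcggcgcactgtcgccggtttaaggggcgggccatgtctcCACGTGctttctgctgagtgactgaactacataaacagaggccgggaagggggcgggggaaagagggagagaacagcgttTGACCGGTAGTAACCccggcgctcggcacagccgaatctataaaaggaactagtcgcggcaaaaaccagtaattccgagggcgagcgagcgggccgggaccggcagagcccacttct
Plin2: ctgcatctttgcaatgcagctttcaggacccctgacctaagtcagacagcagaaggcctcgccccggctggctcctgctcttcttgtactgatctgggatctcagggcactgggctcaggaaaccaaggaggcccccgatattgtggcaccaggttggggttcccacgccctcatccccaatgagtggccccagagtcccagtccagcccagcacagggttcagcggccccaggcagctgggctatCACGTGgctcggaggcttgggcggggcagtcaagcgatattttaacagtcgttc
Spp1: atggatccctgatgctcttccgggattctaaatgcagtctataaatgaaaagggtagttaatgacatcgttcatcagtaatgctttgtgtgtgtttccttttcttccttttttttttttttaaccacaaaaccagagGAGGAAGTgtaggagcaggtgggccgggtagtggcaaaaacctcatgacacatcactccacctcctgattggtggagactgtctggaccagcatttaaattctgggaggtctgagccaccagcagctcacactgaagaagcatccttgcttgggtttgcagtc

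In Abca1 the DR4 letters lie on the strand opposite to the gene, 67 to 53 bases before the start, and an E-box lies 147 to 142 bases before it. The E-box of Plin2 begins 4 bases before the start, and the PU.1 letters of Spp1 lie 113 to 106 bases before it. No matches overlapped, and none of the 11 windows held the DR1 letters. The letters describe the windows and were not tied to any level.

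Of 15 other genes of the LXR axis and of sterol export, all measured, 4 were higher in microglia-class cells, against 1 in endothelial cells. The shares of all measured genes were 19.9% and 11.7%. The median log2 ratio was 0.30, near the 0.36 of all measured genes. Within plate A the median was 2.44, with 7 of 13 higher in the microglia class and 3 of 13 in endothelial cells, and within plate B 4.73, with 10 and 0 of 14. Measured genes as a whole had a median of 1.73 on plate A, with 46.5% and 10.9% called. On plate B their median was 1.87, with 48.4% and 11.5%. Abca9, a transporter that sterols regulate in macrophages, had 378 CPM against 0.281, and Mylip, the LXR-induced ligase that removes the LDL receptor, 264 against 80.9. Smpdl3a, a phosphodiesterase induced by LXR in macrophages, had 99.3 CPM in microglia-class cells, against 359 in endothelial cells. Of the receptors themselves, Nr1h3 stood at 18.0 CPM in microglia-class and at 0 in endothelial cells, and Nr1h2 at 171 and 142; these 2 were picked after their values were seen. For cholesterol synthesis, 0 of 21 genes were higher in microglia-class cells and 1 was higher in endothelial cells, beside the same 19.9% and 11.7%. The median log2 ratio was -0.61, with -0.30 within plate A and -0.53 within plate B. Srebf2, its master regulator, had 136 CPM against 148, Msmo1 63.8 against 97.7 and Ebp 93.0 against 57.3, while Hsd17b7, a sterol reductase, had 0.21 against 21.7.

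Plin2, the droplet coat protein, had 333 CPM in microglia-class cells (327 to 338), against 98.6 in endothelial cells (94.5 to 103), a ratio of 3.37 (3.22 to 3.53). It was read in 56.1% of microglia-class cells and 28.8% of endothelial cells, and at 10 or more reads in 91 and 16 cells. On plate A it stood at 290 CPM against 0, and on plate B at 356 against 162, where 1 endothelial cell held 340 of 343 reads. Of 15 measured droplet genes, 3 were higher in microglia-class cells, against 3 in endothelial cells, with a median log2 ratio of -0.29, beside 19.9% and 11.7% of all measured genes. Within plate A the median was 2.06, with 7 and 2 of 14, and within plate B 1.55, with 6 and 1 of 13. Measured genes as a whole had a median of 1.73 on plate A, with 46.5% and 10.9% called. On plate B their median was 1.87, with 48.4% and 11.5%, so the droplet list was near the whole on both plates. Among the lipases, Mgll, which splits monoglycerides, had 25.5 CPM in microglia-class cells, against 1493 in endothelial cells, Lipe 39.5 and 186, and Pnpla2 174 and 238, the last of them below the 4-fold mark.

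Ch25h, Spp1 and Gpnmb had 0 reads in the 111 endothelial cells, which allows a share of cells with a read of up to 2.70% (3 cells of 111). Ch25h, which makes 25-hydroxycholesterol, stood at 57.3 CPM in the microglia class, at least 408-fold higher against a floor of 3 reads over the endothelial class. Its reads came from 46 cells, 22 of them with 10 or more, and 51.4% lay in 5 cells. Other oxysterol genes were higher in microglia-class cells for 3 of 7 measured and in endothelial cells for 1, with a median log2 ratio of 0.42. All measured genes had shares of 19.9% and 11.7% and a median of 0.36. Gpr183, a receptor for oxysterols, had 556 CPM against 0.187, Cyp27a1, which makes 27-hydroxycholesterol, 344 against 0.187, and Osbpl9, a sterol transfer protein, 159 against 259.

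Spp1, the secreted matrix protein osteopontin, stood at 57.4 CPM, at least 409-fold higher than in endothelial cells by the same floor. Although 89 microglia-class cells had a read, 16 had 10 or more, and 72.1% of 2726 reads lay in 5 cells. Gpnmb, a membrane glycoprotein of phagocytes, stood at 35.9 CPM, at least 256-fold higher by the floor, but 1600 of its 1705 reads (93.8%) came from 1 cell of plate B. A second cell had 78 reads, 14 cells had 1 to 4, and plate A had none in 133 cells.

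**Figure D3:**
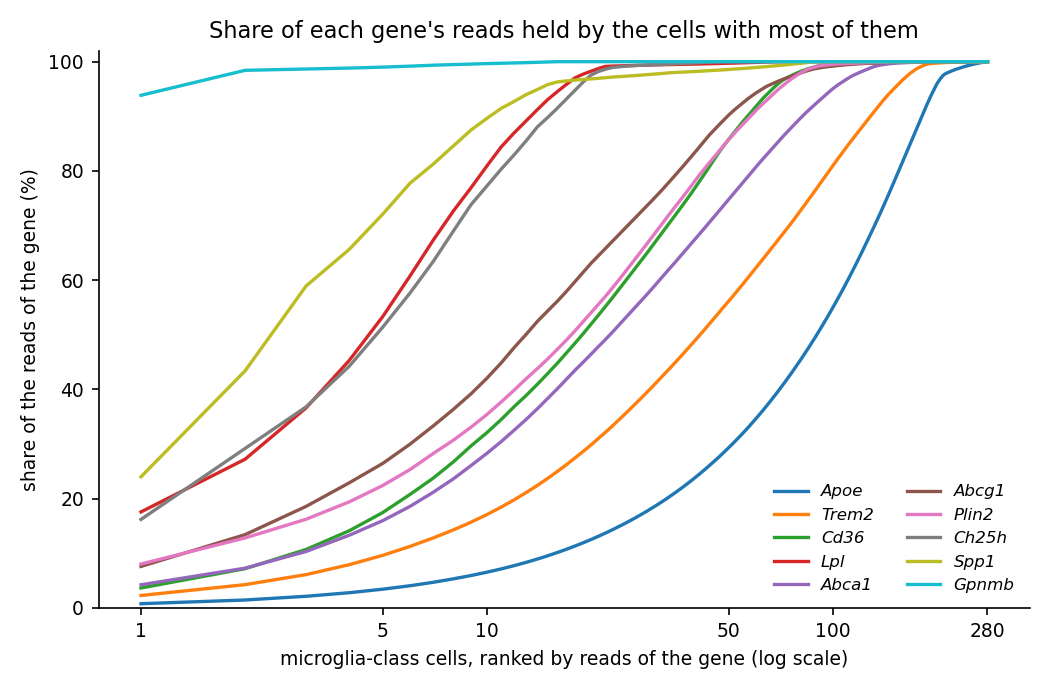
Cumulative share of the reads of each gene, in percent, held by microglia-class cells ranked from most to fewest reads of that gene (log scale on the horizontal axis). A single cell holds 93.8% of Gpnmb reads and 5 cells 72.1% of Spp1 reads, whereas 90 cells are needed for 50% of Apoe reads.

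The cell with 1600 Gpnmb reads combined several of these genes. It had 5392 CPM of Gpnmb, 1783 of Spp1, 7276 of Apoe, 1995 of Trem2, 907 of Abca1, 529 of Plin2 and 482 of Abcg1, with 0 of Lpl, Ch25h and Cd36. Genes of the plaque-associated state were present as well, with Cst7 at 1183 CPM, Cd9 at 1146, Cd63 at 1045, Fabp5 at 1021, Lgals3 at 684 and Itgax at 559. Mrc1 stood at 3.37 CPM and Sall1 at 30.3 CPM. These genes were also present in the cell of plate A with 633 Lpl reads. It had Itgax at 2151 CPM, Cd9 at 1889, Lgals3 at 1566, Cd63 at 1180, Cst7 at 300 and Fabp5 at 143. Its Spp1 level was 428 CPM and it had 0 of Gpnmb. Single cells picked by their reads cannot show how common such a profile is among the 280.

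For some genes, low counts were more common in the plate row of the cell with most reads of that gene. For Gpnmb, 11 of the other 17 cells in that row (64.7%, 38.3% to 85.8%, exact Clopper-Pearson interval) had 1 to 9 reads, against 3 of 139 cells in the other rows of plate B (2.16%, 0.447% to 6.18%). For Ch25h it was 5 of 10 in the row against 11 of 146 elsewhere, and for Lpl 11 of 21 against 17 of 135. For Spp1 it was 7 of 17 against 41 of 139, and for Abca1 4 of 20 against 36 of 136. These 1 to 9 reads enter every share of cells with a read, and the source of the low counts was not tested. At 10 or more reads only Apoe and Trem2, of the 10 genes, were found in at least 50% of microglia-class cells, against 6 at 1 or more.

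Genes of the plaque-associated microglia list, the 10 genes left out, were higher in the microglia class for 15 of 20, all measured, and in endothelial cells for 1, with a median log2 ratio of 4.95. Lyz2, a lysozyme, had 4059 CPM against 10.9, Ctsb, a lysosomal protease, 4861 against 695, and Fth1, ferritin heavy chain, 3315 against 1146. Lysosomal lipid genes were higher in the microglia class for 7 of 15, all measured, and for 0 in endothelial cells, with a median of 1.72. Beside both lists, all measured genes had shares of 19.9% and 11.7% and a median of 0.36. Hexa, which breaks down gangliosides, had 1577 CPM in microglia-class cells against 298 in endothelial cells, and Grn, progranulin, 2866 against 1060.

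Plates were set side by side because plates C and D held only endothelial cells. On plate A, 8 of 9 measured genes of the 10 were higher in microglia-class cells, beside 46.5% of 14160 genes, and 0 in endothelial cells, beside 10.9%; Gpnmb had no read there. On plate B it was 9 of 10, beside 48.4% of 13649 genes, and 0, beside 11.5%. With 7 and 10 endothelial cells on these plates, the sums rest on few cells.

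Within the microglia class, Sall1-high cells had more Trem2 and less Apoe than Mrc1-high cells. Apoe had 8595 CPM in Mrc1-high cells and 1004 in Sall1-high cells, and 1000 or more Apoe reads were found in 163 of 186 Mrc1-high cells against 0 of 36 Sall1-high cells. Median Apoe reads were 1582 per Mrc1-high cell and 106.5 per Sall1-high cell. Trem2 had 822 CPM in Mrc1-high cells and 2041 in Sall1-high cells, and 10 or more reads in 121 of 186 and 35 of 36.

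Cd36 had the largest ratio of summed levels of the 10, at 480 CPM in Mrc1-high cells and 1.13 in Sall1-high cells, with 10 or more reads in 82 of 186 and 0 of 36. The median was 2 Cd36 reads per Mrc1-high cell and 0 per Sall1-high cell. Plin2 had 345 and 39.7 CPM, Abca1 310 and 169, Ch25h 60.4 and 0.706, and Spp1 63.0 and 1.41. Among Mrc1-high cells, 1 cell held 654 of 1963 Spp1 reads and 1 cell 441 of 1884 Ch25h reads. The median Mrc1-high cell had 0 reads of either gene. Abcg1 had 151 CPM in Mrc1-high cells and 441 in Sall1-high cells, but 146 and 201 among cells of 100000 to 200000 reads, a range chosen after the data were seen. Lpl had 112 and 38.1 CPM, and 96.7% of the reads of the Sall1-high cells were in 1 cell. Of the 10 genes, 5 were 4-fold or more higher in Mrc1-high cells, beside 22.7% of 13952 genes, and 0 in Sall1-high cells, beside 7.55%. All of this compares cells of 1 sample.

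Clusters made without the 10 genes and the lipid lists gave 4 groups of 126, 66, 45 and 43 cells. Cluster 3 had 10 or more Sall1 reads in 33 of its 45 cells and had 9 of 10 tissue microglia markers in at least 50% of its cells, and is called microglia-like. Cluster 1 had the highest median level of the border macrophage markers, at 892 CPM, and stays unnamed. Clusters 2 and 4, led by Lyz1 and Dpp4, stay unnamed too. On plate B clusters 1, 2 and 4 were uneven over the well rows. Cluster 4 held 17 of 19 cells of row L. Cluster 2 held 15 of 22 of row J, with 0 in cluster 1. Cluster 1 held 15 of 18 of row P, with 0 in cluster 2. In these rows cluster and row cannot be told apart. Rows I, K, M, N and O of plate B held cells of all 4 clusters. Cluster 3 had cells in every row of plate B, from 1 to 6 per row. On plate A each row held cells of at least 3 clusters. Apoe ran from 11451 CPM in cluster 1 and 8446 in cluster 2 to 1472 in cluster 3 and 2775 in cluster 4. On plate A alone the levels were 14027, 9657, 2268 and 1505 CPM in clusters 1 to 4. In cluster 4 the cells were divided, with 14 of 43 at 1000 or more Apoe reads and 29 under 500.

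Trem2 was highest in cluster 3, at 2195 CPM, where 45 of 45 cells had 10 or more reads, and lowest in cluster 4, at 249 CPM, where 13 of 43 had. Clusters 1 and 2 lay between, at 943 and 1157 CPM. On plate A the order was the same, with 2202 CPM in cluster 3, 163 in cluster 4, 922 in cluster 1 and 1027 in cluster 2. Cd36 stood at 634 CPM in cluster 1, 373 in cluster 2, 161 in cluster 4 and 1.39 in cluster 3. On plate A cluster 4 had 1.78 CPM of Cd36 in 10 cells and on plate B 194 in 33 cells. Abca1 had 494 CPM in cluster 1, 235 in cluster 2, 142 in cluster 3 and 17.5 in cluster 4.

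Cluster 2 held most of the reads of the rarely read genes. It had 319 CPM of Lpl, against 71.2, 107 and 73.8 in clusters 1, 3 and 4. Without the top cell of each cluster these were 224 in cluster 2, against 40.1, 40.1 and 17.5. It had 172 CPM of Ch25h, against 44.6, 0.533 and 1.20. Spp1 stood at 130 CPM there, or 86.0 without its top cell, and Gpnmb at 148, or 7.60 without its top cell. Plin2 was lowest in cluster 3, at 96.3 CPM, against 441, 323 and 383 in clusters 1, 2 and 4.

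Between clusters 1 and 3, 4 of 9 measured genes were 4-fold or more higher in cluster 1, beside 17.9% of 13559 genes, and 0 in cluster 3, beside 10.4%; Gpnmb stayed under 1 CPM in both. These 4 were Apoe (log2 2.96), Cd36 (8.06), Ch25h (4.90) and Plin2 (2.19). On plate A alone 4 of 9 were higher in cluster 1, beside 21.1% of 13023 genes, and 1 in cluster 3, beside 11.8%, namely Lpl at a log2 ratio of -2.55. That Lpl value rested on 1 cell of plate A, which held 633 of the 1001 Lpl reads of cluster 3 over both plates. Sall1-high cells of plate A had 2.08 CPM of Lpl. Cluster 1 cells were shallower, with a median of 114817 gene reads against 209001 in cluster 3. In cells of 100000 to 200000 reads, Apoe had 11508 CPM in 54 cells of cluster 1 and 953 in 14 cells of cluster 3, and Trem2 1036 and 2125. There 6 of 9 measured genes were higher in cluster 1, beside 29.6% of 12242 genes, and 0 in cluster 3, beside 12.5%, with Plin2 at a log2 ratio of 8.01. Abcg1 had 173 CPM in cluster 1 and 513 in cluster 3 over all cells, but 180 and 173 in that range.

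**Figure D4:**
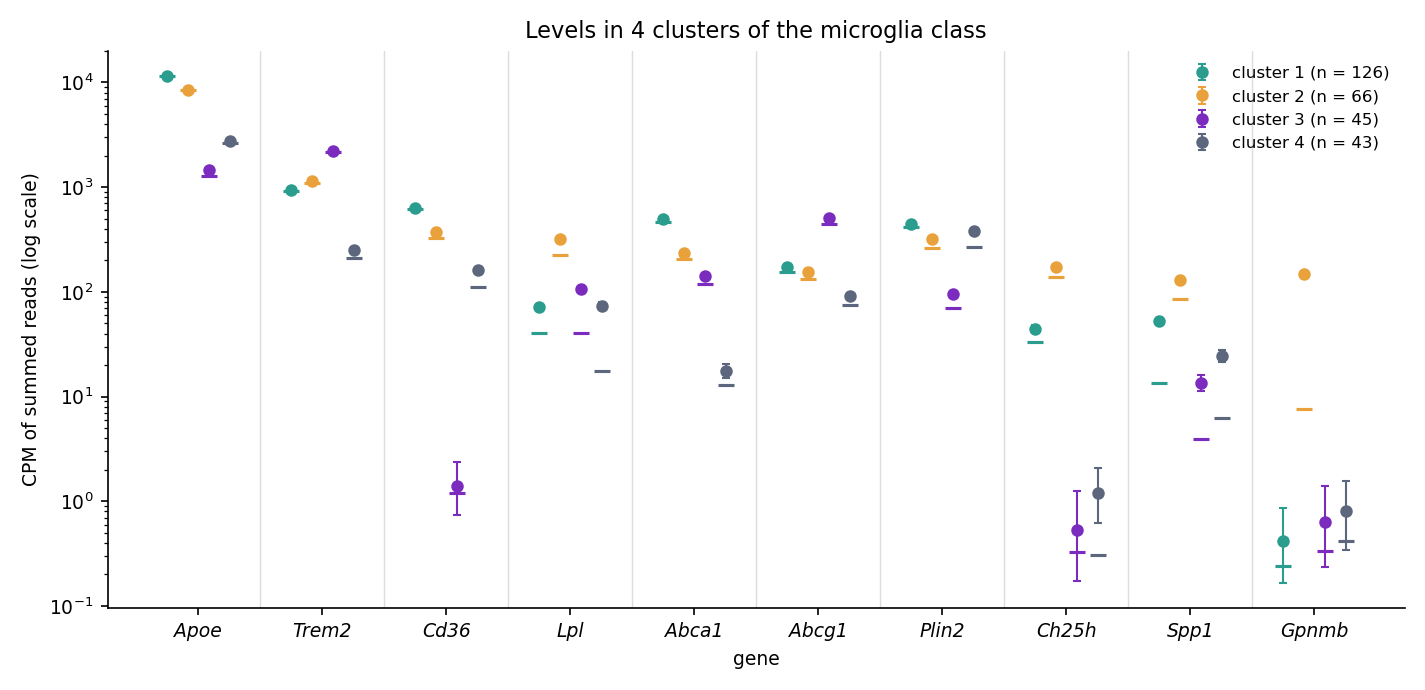
CPM of the summed reads of each gene in 4 clusters of the microglia class, on a log scale; points with bars are levels with exact 95% Poisson intervals of counting error, and dashes are the level without the cell with most reads of the gene. Cluster 3 is the highest in Trem2 (2195 CPM) and, with both plates pooled, the lowest in Apoe (1472), Cd36 (1.39) and Plin2 (96.3), although cluster 4 is lower in Apoe on plate A (1505 against 2268), and the Gpnmb level of cluster 2 falls to 7.60 CPM without 1 cell.

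Co-expression from cell to cell was weak. Of the 45 pairs of the 10 genes in 280 microglia-class cells, 5 had a Spearman rho of 0.2 or more, 1 of -0.2 or less, and the median was 0.01. Cells share plates and depth, so these values are descriptions. Apoe and Cd36 gave the highest, 0.39 (plate A 0.34, plate B 0.40), followed by Apoe and Abca1 at 0.25, Plin2 and Cd36 at 0.23, and Abca1 and Cd36 at 0.22. The lowest was Apoe with Abcg1, at -0.27.

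Pairs with Apoe carry the dependence of Apoe CPM on depth given above. In the 114 cells of 100000 to 200000 reads Apoe and Cd36 had a rho of 0.50 and Apoe and Abcg1 -0.04. Within cluster 1, where 119 of 126 cells had 1000 or more Apoe reads, Apoe and Cd36 had -0.060, and within clusters 2, 3 and 4 they had 0.32, 0.30 and 0.37. Spp1 and Gpnmb had 0.22, which was 0.04 after every cell was thinned to 71000 reads, and only 1 cell had 10 or more reads of both.

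Apoe and Trem2 had a rho of -0.027 over all cells. It was -0.026 in cluster 1, 0.038 in cluster 2, -0.031 in cluster 3 and 0.72 in cluster 4, of whose 43 cells 17 came from row L of plate B. Since every microglia-class cell had 10 or more Apoe reads, so did the 191 with 10 or more of Trem2. Abca1 and Abcg1, the exporter pair, had 0.11, and 48 cells had 10 or more reads of both, which is 37.2% of the 129 Abca1 cells and 55.2% of the 87 Abcg1 cells. A microglia-class cell had 10 or more reads of a median of 3 of the 10 genes (1 to 9), and an endothelial cell of 1 (0 to 4).

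**Figure D5:**
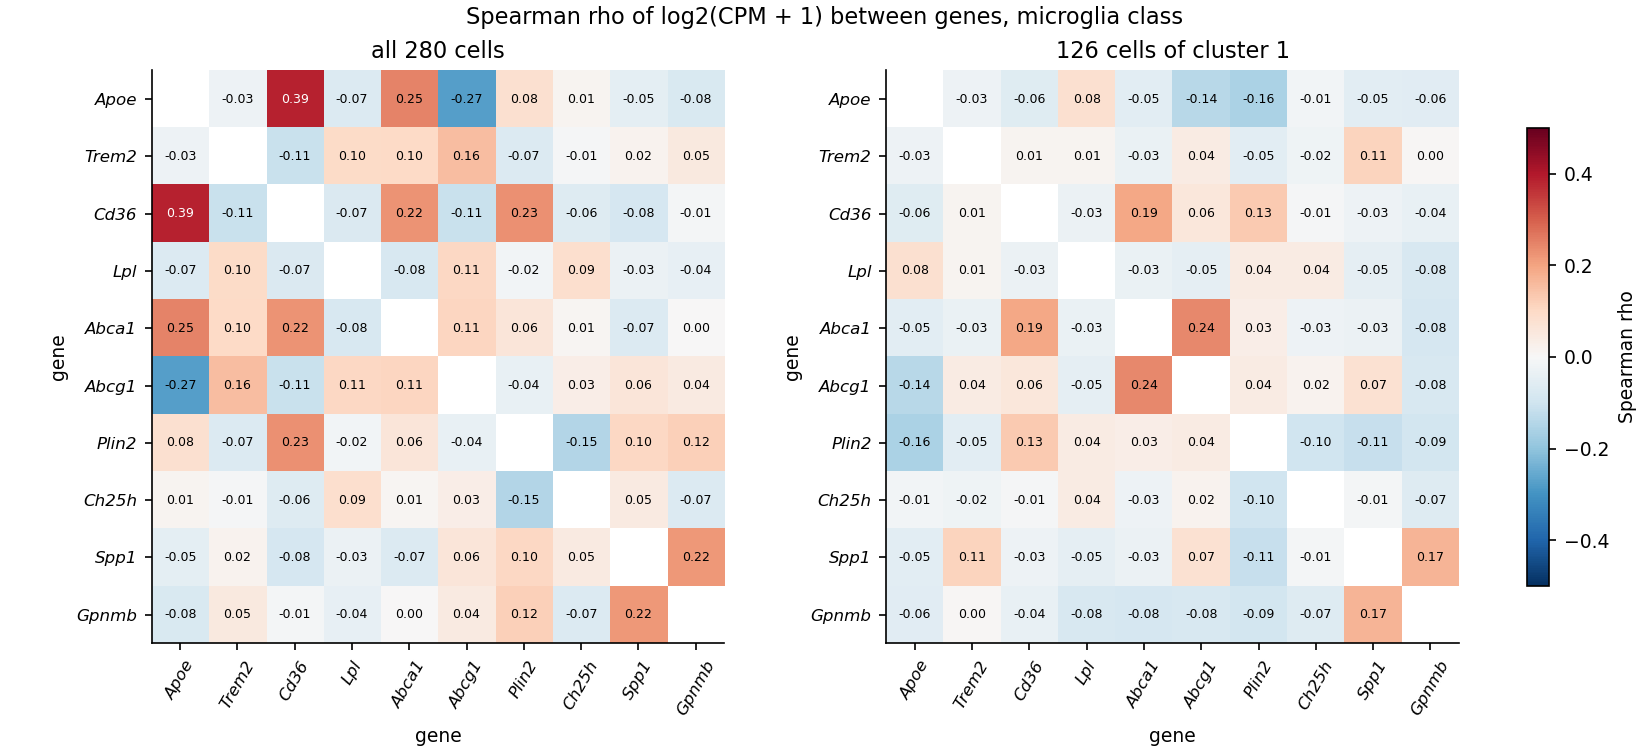
Spearman rho of log2(CPM + 1) between each pair of the 10 genes over all 280 microglia-class cells (left) and over the 126 cells of cluster 1 (right), with the value written in each square. Apoe with Cd36 is the highest square at left (0.39) and is near 0 at right (-0.060), while it was 0.32, 0.30 and 0.37 within clusters 2, 3 and 4.

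The genes most alike to each commonly read member were sought among 1046 genes read in at least 50% of microglia-class cells, by rho over those 280 cells. Nearest to Apoe were Lyz2 (0.79), Rn18s-rs5 (0.72) and Selenop, a selenium transport protein (0.71), all of which also had reads that rose less than in proportion to depth, with slopes of 0.28, 0.09 and 0.26. Among those nearest to Trem2 were Ctsd, a lysosomal protease (0.54), and Cx3cr1, the fractalkine receptor (0.46). Like Trem2, both were highest in cluster 3 and lowest in cluster 4, with Ctsd at 3518 and 471 CPM and Cx3cr1 at 4955 and 423.

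For Cd36 the nearest were Cbr2 (0.44), Ms4a7 (0.43) and Stab1 (0.42), all on the list of border macrophage markers. Plin2 was nearest to Wfdc17 (0.33), Ms4a7 (0.29) and Ms4a4a (0.27), Abca1 to Ctsd (0.36), Ctsb (0.35) and the tetraspanin Cd63 (0.33), and Abcg1 to Pros1, protein S (0.32), the tetraspanin Cd9 (0.32) and Selplg (0.31). The 95th percentile of rho over the 1046 genes was 0.31 for Apoe, 0.25 for Trem2, 0.21 for Cd36, 0.15 for Plin2, 0.18 for Abca1 and 0.18 for Abcg1.

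Markers of further cell types were low in the microglia class. Summed over each list they reached 125 CPM for astrocytes, 592 for oligodendrocytes, 16.5 for neurons, 40.7 for mural cells and fibroblasts, 59.4 for choroid plexus epithelium and 6.23 for blood cells, with Cnp at 204 CPM. In endothelial cells the sums were 379, 86.4, 13.7, 236, 327 and 44.0 CPM in the same order, led by Gja1 at 352, Cnp at 84.9, Stmn2 at 11.7, Acta2 at 132, Enpp2 at 286 and Hbb-bs at 22.4. The part of other cells in the levels of the 10 genes was not tested, and the endothelial values set beside C1q and astrocyte markers above are descriptions.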

How the data were processed

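Smart-seq2 libraries of 391 wells, deposited as 1 cell each, were used as the authors' table of raw read counts per gene, not normalized, per the file's name and its whole-number values. Per the submitters' processing notes the tools were SAMtools 1.16.1, featureCounts and Subread 1.4.6-p5 with build GRCm39. Which aligner and annotation were used, whether strand was used, and how duplicates and multiple hits were handled is not given in the sources used here, so reads of Ch25h and Spp1, which overlap predicted genes over 159 and 309 exon bases in GENCODE M21, are uncertain. Columns were tied to a class through the deposited cell table, and the plate and well row were read from the column names. No count column was left out, 0 were identical, no cell filter or doublet caller was used, and with 1 sample per class no test was run.

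Reads were summed per class, with exact Poisson intervals (95%), exact conditional binomial intervals of ratios and exact Clopper-Pearson intervals of shares. For log2 ratios 1 CPM was added to each level, so that changes of low genes are understated, and a gene counts as measured at 1 CPM in either group. A class with 0 reads was set to 3 reads over the class. Clusters were made within the microglia class with scanpy 1.11.5 from 2000 variable genes, 20 components, 15 neighbours and Leiden resolution 0.5. The steps were tested on simulated data. TMM factors, an alternative scaling, came from edgeR 4.0.16 in R 4.3.3, and all else from scipy 1.17.1, pandas 2.3.3 and numpy 2.4.6 under Python 3.11.15.

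The 10 genes and the 19 gene lists were chosen with earlier results of these data known. Besides the 10 genes and the listed markers, the text names from each of the 9 lipid lists the 3 measured genes with the highest level and the 1 with the most extreme ratio, the 3 genes most alike to each member read in at least 50% of microglia-class cells, and the highest gene of each other cell type's list. Other genes of single cells, C1qb, and the receptors Nr1h3 and Nr1h2 were added later. A few results under this rule are left out here. Alternatives were another scaling, totals, pseudocounts, minima, plates, marker-mixed cells, thinning to 71000 reads, other clusterings, cells of like depth and clusters of plate A alone.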

Additional observations from a re-analysis of the deposited data

How the results depend on the processing

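The count of 8 of 10 genes higher in the microglia class was 8 or 9 under every alternative but 1, and fell to 7, by Gpnmb at a log2 ratio of 1.69, when the cell with most reads of each gene was left out. Abcg1 had a log2 ratio of microglia over endothelial of -0.14 by the mean of single-cell CPM and -0.26 within plate A. Genes of the lipid lists higher in the microglia class numbered 52, but 79 within plate A and 81 within plate B, where few endothelial cells were summed. The shares of all measured genes were 19.9%, 46.5% and 48.4%. Members found in at least 50% of microglia-class cells numbered 6 at 1 or more reads, 2 at 5 or more, 2 at 10 or more and 3 in cells thinned to 71000 reads. Pairs with a rho of 0.2 or more in size numbered 6, but 1, 12 and 21 within clusters 1, 2 and 4. Within cluster 1 Apoe and Abca1 had -0.052 and Apoe and Cd36 -0.060; within cluster 2 Apoe and Abca1 had -0.15; within cluster 3 Apoe and Abcg1 had 0.060 and Abca1 and Cd36 -0.13. For cluster 1 over cluster 3, log2 values changed sign for Lpl (1.53 by Mrc1 and Sall1 reads, 0.68 at resolution 1.0, 5.25 at like depth), Gpnmb (1.31 by Mrc1 and Sall1 reads) and Abcg1 (0.053 at like depth), and for Spp1 (-0.37 within plate A). Cd36 fell to 3.98 with the 10 genes kept in the clustering, and Plin2 was 8.01 at like depth and 1.62 at resolution 1.0. Genes higher in the microglia-like cluster numbered 0, but 1 within plate A (Lpl, through 1 cell with 633 reads) and 1 at resolution 1.0 (Abcg1). At resolution 1.0 the compared cluster was 15 cells, all of row P of plate B. Like depth and plate A alone were chosen after seeing the data. The causes were not tested. No paired analysis was possible because no animal or replicate number is shared between the classes. Depth limits the genes read in few cells: reads without molecular identifiers are not independent molecules, and a cell with no read may still hold the RNA.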
